A study of Mus musculus with 6 samples.

Results

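Hepcidin and iron handling genes of mouse liver were followed in 6 ICR mice, an outbred stock. The 10 genes were taken by name from a deposited table of 26123 genes: the hepcidin genes Hamp and Hamp2, the iron sensors Hfe and Tfr2, the ligand Bmp6 and its target Id1, the uptake receptor Tfrc, the exporter Slc40a1, and the ferritin subunits Fth1 and Ftl1. All 10 were found, and all 10 passed the filter on low counts. The groups were 3 livers labelled crizotinib and 3 labelled control. The crizotinib dose given in the design text is 300 mg/kg, after 7 days of adaptation, with sampling 1 week later. Crizotinib inhibits the receptor kinases MET, ALK and ROS1, and the series calls the experiment a liver injury model. Normal saline is named beside the drug, but the design text words the dosing so that it is unclear who received which, and groups here rest on the treatment label of each sample. Sex, age and route are not stated. Livers are numbered as in the sample titles, and each is a separate mouse.

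Hepcidin is a peptide hormone that hepatocytes secrete. It binds ferroportin, the product of Slc40a1 and the only known cellular iron exporter, and has it degraded, so that macrophages and the gut release less iron. Its transcription is driven by BMP ligands from the sinusoidal endothelium acting through SMAD proteins, with HFE, TFR2 and hemojuvelin as modulators, and by IL-6 through STAT3 in inflammation. Inside cells, iron regulatory proteins bind hairpins called iron-responsive elements and set the translation of ferritin and ferroportin and the stability of the Tfrc transcript.

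The promoters of Hamp and Hamp2, neighbours on chromosome 7, are shown because the paralogs had different values in the same libraries. The stretches below are from RefSeq windows on GRCm38.p6, minus strand, at chr7:30944078-30944178 for Hamp and chr7:30924227-30924327 for Hamp2. Capitals mark a BMP response element core (GGCGCC), or the bases aligned to it, and then a STAT site (TTCNNNGAA).
Hamp: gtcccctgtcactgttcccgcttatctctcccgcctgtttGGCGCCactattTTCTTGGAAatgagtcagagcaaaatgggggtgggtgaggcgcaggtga
Hamp2: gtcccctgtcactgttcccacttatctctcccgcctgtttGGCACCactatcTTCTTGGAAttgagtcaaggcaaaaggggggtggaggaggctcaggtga
The stretches were identical at 91 of 101 aligned bases, and the full windows at 276 of 297 (92.93%). The element lies at -109 to -104 from the Hamp start, and the aligned bases in Hamp2 differ by G4A, counted from 1 at the 5′ end of the element. The STAT site was the same in both, at -97 to -89 in Hamp and -94 to -86 in Hamp2. Both motifs read the same on either strand and do not overlap each other. Among 32851 windows of 300 bases, 11.866% held GGCGCC, 8.298% held TTCNNNGAA and 0.645% held both. Windows were found for 8 of the 10 genes. Hamp held both motifs, Hamp2 the STAT site and Tfrc 1 GGCGCC at -89 in 1 of its 2 windows, and neither was found in the windows of Bmp6, Hfe, Tfr2, Fth1 or Ftl1.

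Iron-responsive elements are shown because 4 of the genes carry them and, between them, had values in opposite directions. GENCODE M21 transcripts were searched for the loop CAGTGN, with N not G, closed by 5 base pairs (G-T pairs allowed) next to a C on its 5′ side. Capitals mark the loop, and the Tfrc sites lie in the 3′ UTR and the others in the 5′ UTR.
Fth1 (chr19:9982732-9982761, plus strand): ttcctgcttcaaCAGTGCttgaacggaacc
Ftl1 (chr7:45459778-45459807, minus strand): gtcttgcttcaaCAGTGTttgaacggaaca
Slc40a1 (chr1:45925464-45925493, minus strand): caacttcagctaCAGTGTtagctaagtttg
Tfrc (chr16:32631219-32631248, plus strand): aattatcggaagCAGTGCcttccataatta
Tfrc (chr16:32631598-32631627, plus strand): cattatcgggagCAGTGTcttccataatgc
Tfrc (chr16:32631663-32631692, plus strand): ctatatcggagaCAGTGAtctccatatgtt
Tfrc (chr16:32631710-32631739, plus strand): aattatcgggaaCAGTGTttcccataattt
Such a match was present in a UTR of 119 of 21760 protein-coding genes (0.547%). Transcript counts do not show translation, which the elements in the ferritin and ferroportin transcripts control.

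Libraries held between 51123361 and 67947970 counts, 37 mitochondrially encoded genes took 5.53% to 14.4% of crizotinib libraries and 7.47% to 44.5% of control libraries (highest in control liver 1), and crizotinib liver 3 stood apart from the other treated libraries in inflammatory genes. All 12 hepatocyte markers listed were detected in every library, and summed to 41312 to 48334 CPM in crizotinib and 72228 to 87742 CPM in control livers. Its most abundant member in every library was Alb, the albumin gene (log2 fold change -1.48). Of the 12, 7 were fitted higher and 5 lower, none passed edgeR's test (DESeq2 called 1 higher and 2 lower, and 1 was higher at an unadjusted p under 0.05), and the median was 0.16 (-0.07 to 0.23 with any one library left out). Their part in the results was not tested. Levels within a gene are CPM, library-scaled counts with TMM normalisation, and levels compared between genes are the authors' FPKM, per gene length. Fold changes set crizotinib against control by edgeR's quasi-likelihood test, with p-values adjusted over 16492 genes. Across all of them, 0.340% passed an adjusted p of 0.05, 15.3% had an unadjusted p under 0.05, and 21.0% had no overlap between the groups.

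Hepcidin transcript was higher in every crizotinib liver, ferroportin transcript was lower in every one, and Tfrc, Hfe, Id1 and Fth1 were also higher in all 3 than in any control. None of the 10 genes passed edgeR's test over all genes. Of all genes tested, 0.0910% passed as higher and 0.249% as lower. At an unadjusted p under 0.05 there were 3 higher (Hamp, Tfrc and Hfe) and 1 lower (Slc40a1), where 8.06% of all genes tested were higher and 7.25% lower. The groups did not overlap for 6 of the 10, with 5 higher and 1 lower, where 10.7% of all genes tested were higher and 10.3% lower without overlap. The median log2 fold change of the 10 was 0.53, and that of all genes tested was -2.66e-05. By DESeq2, which called 5.75% of the genes it adjusted, Hamp and Slc40a1 passed. Without crizotinib liver 3, edgeR called 8.83% of genes and none of the 10.

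**Figure D1:**
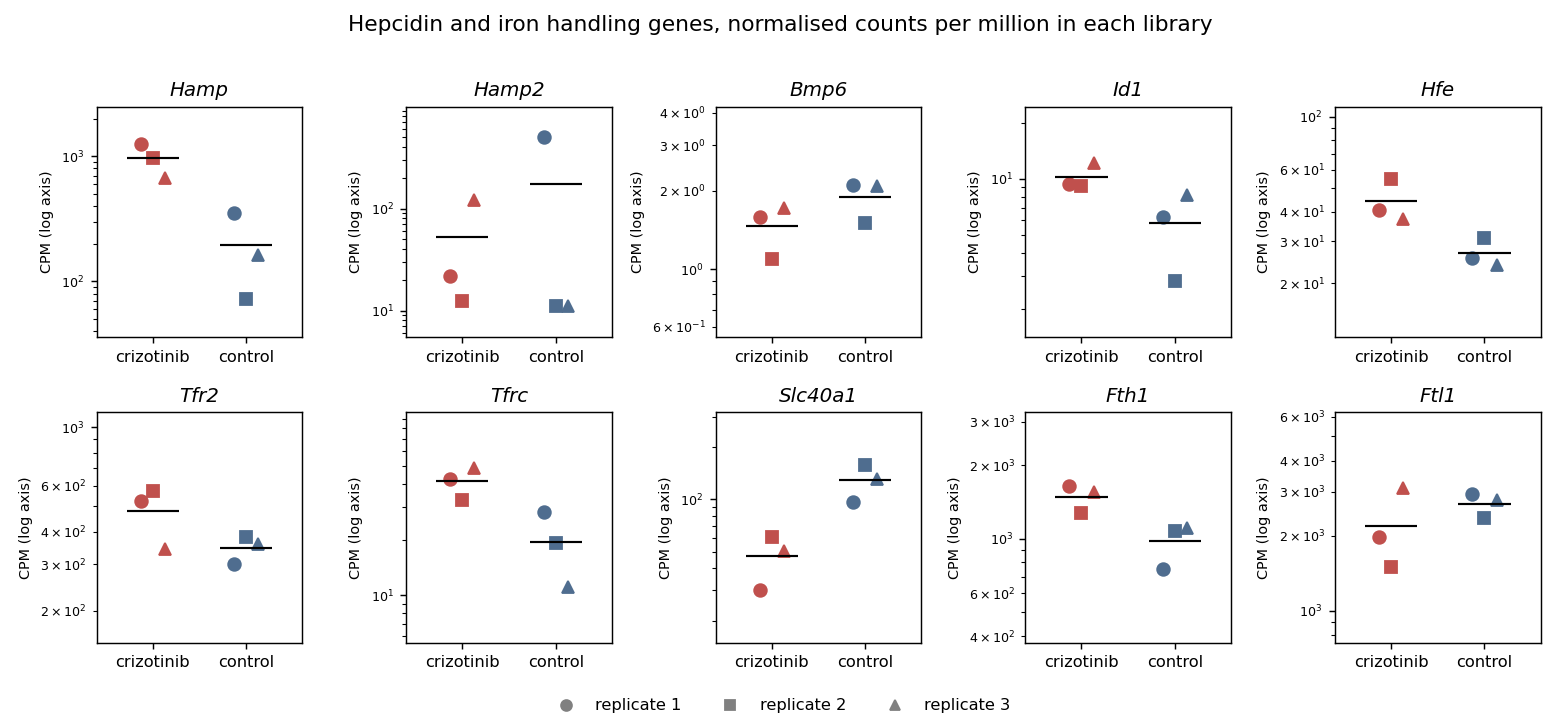
Normalised CPM on a log axis for each gene in the 3 crizotinib libraries (red) and the 3 control libraries (blue), with a marker shape per replicate number and a bar at the arithmetic mean. The groups do not overlap for Hamp, Id1, Hfe, Tfrc, Slc40a1 and Fth1, and control liver 1 stands far above the other controls for Hamp2.

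Hamp (ENSMUSG00000050440, chromosome 7, 30942368 to 30944032 on GRCm38) encodes hepcidin. It had 1241, 964 and 675 CPM in crizotinib livers 1, 2 and 3, against 350, 72.0 and 163 CPM in control livers 1, 2 and 3. The lowest crizotinib liver stood above the highest control, and the controls themselves were widely spread. The means were 960.1 ± 283 CPM in crizotinib and 195 ± 141 CPM in control livers (SD, n = 3 each). The fitted log2 fold change was 2.30 ± 0.62 (SE), or 4.92-fold higher, and did not pass edgeR's test (adjusted p = 0.162, unadjusted p = 0.00607). DESeq2 gave 2.29 (adjusted p = 0.00108), and adjusted p over all other settings ran from 0.00108 to 0.459. Without control liver 1 and crizotinib liver 3 together, a setting chosen after seeing the data, it was 3.20 (edgeR adjusted p = 0.0205).

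Hamp2 (ENSMUSG00000056978, chromosome 7, 30922372 to 30924181) is the mouse paralog of Hamp, whose part in iron handling is less established. It had 22.0, 12.5 and 122 CPM in crizotinib livers 1, 2 and 3, against 497, 11.1 and 11.02 CPM in control livers 1, 2 and 3. Control liver 1 was the highest of all 6 libraries, crizotinib liver 3 the next, and the other 4 lay close together. The fitted log2 difference, -1.73 ± 1.49 (SE) with an adjusted p of 0.612 by edgeR, was set by these libraries, being 2.24 without control liver 1 and -3.37 without crizotinib liver 3. Control liver 1 and crizotinib liver 3 were thus high for Hamp2 but, within their groups, the highest and the lowest for Hamp.

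Reads of these paralogs can land on either copy, which makes both values uncertain. Their transcripts of 410 and 420 bases were identical at 94.63% of aligned bases, with a longest identical run of 87 bases, and 16.62% of the 50-base words of Hamp also occur in Hamp2. By FPKM, Hamp made up 98.8%, 99.1% and 88.8% of the pair in crizotinib livers 1, 2 and 3, against 50.01%, 90.3% and 95.5% in control livers 1, 2 and 3. The ranges overlapped, with a mean of 95.5 ± 5.87% in crizotinib and 78.6 ± 24.9% in control livers (SD, n = 3 each; p = 0.3 in a two-sided exact permutation test, whose smallest possible p is 0.1). The lncRNA Gm44662 spans both genes on the opposite strand, with 10 to 28 counts in crizotinib libraries and 8 to 43 in control libraries. Strand use in counting is not stated.

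Bmp6, the main endothelial ligand of the iron signal in mice, was close to the lower end of what was measured. It had 1.58, 1.10 and 1.71 CPM in crizotinib livers 1, 2 and 3, against 2.10, 1.498 and 2.09 CPM in control livers 1, 2 and 3. The ranges overlapped and the log2 fold change was -0.37 ± 0.39 (SE; edgeR adjusted p = 0.683). Its 3′ end shares 224 bases with Txndc5 on the opposite strand. That gene had 6430 to 12013 counts in crizotinib and 7038 to 11025 in control libraries, and its part in the Bmp6 value was not tested. The 15 sinusoidal endothelial markers summed to 73.5 to 97.6 CPM in crizotinib and 134 to 330 CPM in control livers. All 15 were fitted lower, none passed edgeR's test and none was at 0 in any library. An unadjusted p under 0.05 was reached by 11, where 7.25% of all genes tested were lower at that level. DESeq2 called 5, where it called 5.75% of all genes it adjusted. Without crizotinib liver 3, 3 passed edgeR's test, where 8.83% of all genes did. In bulk tissue, fewer cells of a type and less RNA per cell cannot be told apart, and the part of these cells in the Bmp6 value was not tested.

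Id1, a direct BMP-SMAD target often read as a sign of that pathway, had 9.36, 9.18 and 12.2 CPM in crizotinib livers 1, 2 and 3, against 6.27, 2.81 and 8.20 CPM in control livers 1, 2 and 3. Each crizotinib liver exceeded each control, but by little. Its fitted difference was 0.83 ± 0.40 on the log2 scale (SE; adjusted p = 0.375 by edgeR). Id3, a relative of Id1, was also without overlap, at 53.9, 42.2 and 117 CPM in crizotinib livers 1, 2 and 3 and 35.5, 18.8 and 30.4 CPM in control livers 1, 2 and 3 (log2 fold change 1.33, edgeR adjusted p = 0.222). The groups overlapped for the next 4 genes. Smad6 and Smad7, its feedback inhibitors, had log2 fold changes of 0.29 and -0.19, the transcription factor gene Atoh8 0.42, and Id2 0.04.

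Upstream of these, Tmprss6, the protease that cuts hemojuvelin and restrains hepcidin, had 142, 147 and 253 CPM in crizotinib livers 1, 2 and 3, against 256, 296 and 311 CPM in control livers 1, 2 and 3. All 3 crizotinib values lay below the controls, liver 3 only just (log2 fold change -0.67, edgeR adjusted p = 0.421). Hjv, which encodes hemojuvelin, averaged 88.8 ± 10.4 CPM in crizotinib and 105 ± 33.2 CPM in control livers, and Bmp2, another endothelial ligand, 3.26 ± 1.57 and 3.48 ± 1.62 CPM (SD, n = 3 each). Of 21 listed genes of BMP-SMAD iron sensing, 20 were tested and none passed edgeR's test. An unadjusted p under 0.05 was reached by 2 higher (Smad1 and Id3) and 1 lower (Smad9). Of all genes tested, 8.06% were higher and 7.25% lower at that level. The groups did not overlap for 4 of the 20 (20%), which is near the 21.0% of all genes tested. DESeq2 called 0. Without crizotinib liver 3 edgeR called 1 of the list, where it called 8.83% of all genes. Smad1 and Smad9 encode SMADs that BMP receptors activate and had log2 fold changes of 0.78 and -1.55. Bambi, a decoy receptor gene of the pathway, was lower without overlap, at 1.33, 1.94 and 1.22 CPM in crizotinib livers 1, 2 and 3, against 2.83, 2.09 and 3.05 CPM in control livers 1, 2 and 3 (log2 fold change -0.83, edgeR adjusted p = 0.351). Smad1, Smad9 and Bambi were named after their values were seen. The list's median log2 fold change was 0.21, and its size rested on single libraries, being 0.06 without crizotinib liver 1, 0.07 without control liver 1 and 0.37 without crizotinib liver 3.

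Hfe, an MHC-like protein that modulates the iron signal, had 40.8, 55.0 and 37.1 CPM in crizotinib livers 1, 2 and 3, against 25.6, 31.1 and 23.8 CPM in control livers 1, 2 and 3. The groups did not overlap, and the log2 fold change was 0.72 ± 0.27 (SE; edgeR adjusted p = 0.263). Tfr2, the hepatocyte sensor of iron-loaded transferrin, had 524, 571 and 343 CPM in crizotinib livers 1, 2 and 3, against 302, 383 and 359 CPM in control livers 1, 2 and 3. Crizotinib liver 3 lay among the controls and the other crizotinib livers above them (log2 difference 0.46 ± 0.37, SE, with an adjusted p of 0.582 by edgeR).

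**Figure D2:**
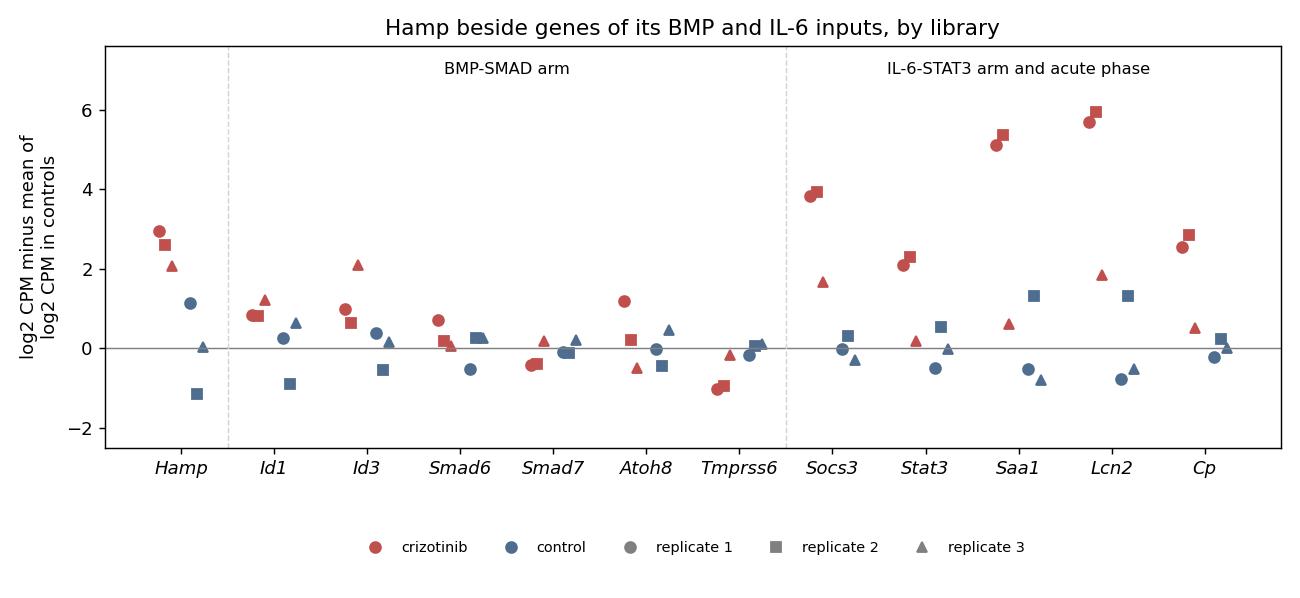
Each point is the log2 CPM of a gene in 1 library minus the mean of log2 CPM over the 3 controls, for Hamp, for 6 genes of the BMP-SMAD arm and for 5 genes of the IL-6-STAT3 arm and acute phase (red crizotinib, blue control, shape by replicate number). In crizotinib liver 3 Hamp stands at 2.08, Socs3 at 1.67, Lcn2 at 1.83 and Cp at 0.50, each above every control. Saa1 at 0.60 and Stat3 at 0.18 there lie below control liver 2 at 1.32 and 0.52.

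Several genes of the IL-6-STAT3 arm were far lower in crizotinib liver 3 than in the other treated livers, while the kinase genes Jak1 and Jak2 were similar in all 3. Saa1, the acute-phase serum amyloid A, stood at 5.10, 5.37 and 0.60 on the log2 scale relative to the control mean in crizotinib livers 1, 2 and 3, against -0.52, 1.32 and -0.80 in control livers 1, 2 and 3. On the same scale Hamp stood at 2.95, 2.59 and 2.08 in crizotinib livers 1, 2 and 3, against 1.13, -1.15 and 0.03 in control livers 1, 2 and 3. Hamp in crizotinib liver 3 was thus above every control, while Saa1 there lay within the controls' range. Other acute-phase and IL-6-STAT3 genes were divided in that liver. Lcn2 (1.83), Cp (0.50), Fga (0.69) and Fgg (0.72) also lay above every control, the highest being control liver 2 at 1.30, 0.22, 0.55 and 0.61. Saa2 (0.59), Fgb (0.49) and Stat3 (0.18) lay below control liver 2 at 1.29, 0.61 and 0.52. Socs3, the feedback inhibitor induced by STAT3, was above every control in all 3, with 148, 160.4 and 33.7 CPM in crizotinib livers 1, 2 and 3, against 10.3, 13.1 and 8.65 CPM in control livers 1, 2 and 3 (log2 difference 3.42 ± 0.59, SE, with an adjusted p of 0.0694 by edgeR). Stat3 itself had a log2 fold change of 1.72 and Il6ra, the IL-6 receptor gene, of 0.37, with edgeR adjusted p of 0.215 and 0.812. Il6 had too few counts to be tested. Of 12 listed genes of the arm 11 were tested and none passed edgeR's test. At an unadjusted p under 0.05, 7 were higher and 0 lower, where 8.06% of all genes tested were higher and 7.25% lower. The median log2 fold change was 2.50. DESeq2 called 7 higher, where it called 5.75% of all genes it adjusted. Without crizotinib liver 3 edgeR also called 7 higher, where it called 8.83% of all genes.

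Among 4036 genes with a mean FPKM of at least 5, those whose pattern over the 6 libraries was most like that of Hamp included Zfp970, Cyp2b10, Nfkbiz and Tnfrsf12a. Likeness was the root mean square difference between genes in their log2 CPM, each taken relative to its own mean. It was 0.58 for Zfp970, 0.61 for the cytochrome P450 gene Cyp2b10, 0.70 for Nfkbiz and 0.71 for Tnfrsf12a. On the log2 scale Hamp varied more between control livers than each of these genes except Zfp970. Cyp2b10, for example, had 113, 47.8 and 35.05 CPM in crizotinib livers 1, 2 and 3, against 7.77, 4.34 and 9.62 CPM in control livers 1, 2 and 3.

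Slc40a1 (ENSMUSG00000025993, chromosome 1, 45908068 to 45926523), the gene of the exporter ferroportin, had 29.9, 60.9 and 50.1 CPM in crizotinib livers 1, 2 and 3, against 96.9, 159 and 131 CPM in control livers 1, 2 and 3. Every crizotinib liver lay below every control. The means were 47.0 ± 15.7 CPM in crizotinib and 129 ± 31.0 CPM in control livers (SD, n = 3 each), that is, -1.46 ± 0.37 (SE) on the log2 scale or 2.74-fold lower. It did not pass edgeR's test (adjusted p = 0.148, unadjusted p = 0.00415) and passed DESeq2's (log2 fold change -1.47, adjusted p = 0.0108); adjusted p over all other settings ran from 0.0108 to 0.419. Without control liver 1 and crizotinib liver 3 together it was -1.70 (edgeR adjusted p = 0.0480).

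Ferroportin is made by Kupffer cells, the macrophages that recycle iron from red cells, as well as by hepatocytes, and Kupffer markers were lower in the same livers. The 14 markers summed to 45.0 to 75.7 CPM in crizotinib and 395 to 528 CPM in control livers, and none was at 0 in any library. Of the 14, 7 fell by edgeR's test (Clec4f, Cd5l, Csf1r, Cd68, C1qb, C1qc and Folr2), where 0.249% of all genes tested fell, 13 were lower at an unadjusted p under 0.05, and the median log2 fold change was -2.63. The count was 11 when crizotinib liver 3 was left out, where edgeR called 8.83% of all genes. It was 0 when any other single liver was left out, where edgeR called only 0 to 3 of all genes. By DESeq2 it was 11, where 5.75% of all genes it adjusted were called. By limma on log2(FPKM + 1) it was 1, where 48 of all genes were called. The part of Kupffer cells in the Slc40a1 value was not tested.

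**Figure D3:**
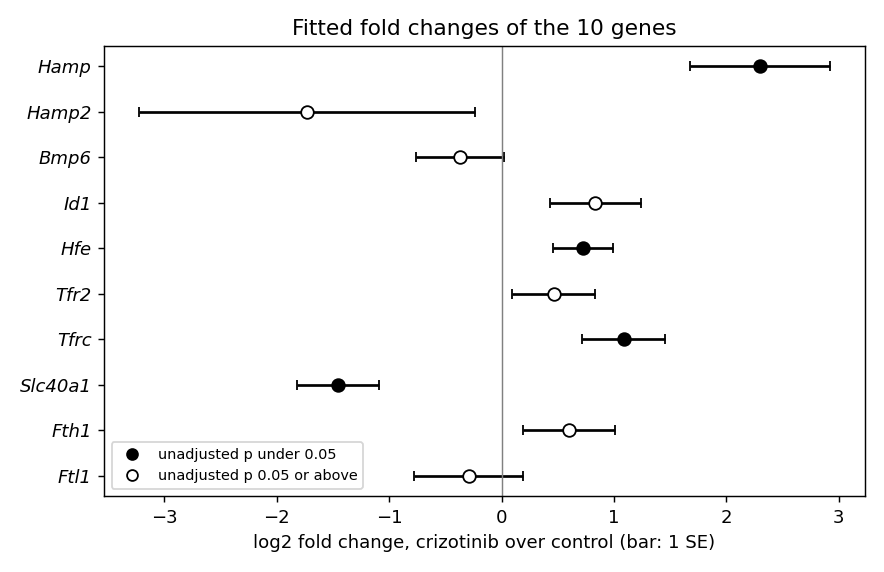
Fitted log2 fold change of each gene, crizotinib over control, with a bar of 1 SE; filled points have an unadjusted p under 0.05. Hamp at 2.30 and Slc40a1 at -1.46 lie farthest from 0 relative to their SE, and the bar of Hamp2 is the widest.

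Tfrc, the transferrin receptor through which cells take up iron, had 42.4, 32.8 and 48.8 CPM in crizotinib livers 1, 2 and 3, against 28.2, 19.2 and 11.1 CPM in control livers 1, 2 and 3. The groups did not overlap, although crizotinib liver 2 and control liver 1 were close. The log2 fold change was 1.09 ± 0.37 (SE), or 2.12-fold higher (edgeR adjusted p = 0.230, unadjusted p = 0.0192). Red cell precursors and dividing cells also carry Tfrc. The 10 erythroid markers found summed to 36.9 to 200.5 CPM in crizotinib and 261 to 997 CPM in control livers (Epb42 was among those at 0 in some libraries, and it was so in both groups). The 10 proliferation markers summed to 24.9 to 27.4 CPM in crizotinib and 27.2 to 59.0 CPM in control livers, none at 0 in any library. The part of these cells in the Tfrc value was not tested. Of 7 erythroid and 10 proliferation markers tested none passed edgeR's test. At an unadjusted p under 0.05, 5 of each list were lower, where 7.25% of all genes tested were. DESeq2 called 5 of the erythroid and 3 of the proliferation list lower, where it called 5.75% of all genes it adjusted. Without crizotinib liver 3 edgeR called 4 and 0, where it called 8.83% of all genes.

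The genes most like Tfrc by the same measure were Thpo, St3gal1, Sall1, Cbs and Tuba1c, with differences of 0.28 to 0.32. Thpo encodes thrombopoietin and Cbs an enzyme of homocysteine metabolism. Cbs had 257, 227 and 269 CPM in crizotinib livers 1, 2 and 3, against 137, 154 and 102 CPM in control livers 1, 2 and 3.

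The ferritin subunits, which form the shell that stores iron, did not show the same pattern. Fth1, the heavy chain with ferroxidase activity, had 1640, 1271 and 1549 CPM in crizotinib livers 1, 2 and 3, against 754, 1079 and 1111 CPM in control livers 1, 2 and 3. It was higher without overlap (log2 difference 0.60 ± 0.41, SE, with an adjusted p of 0.524 by edgeR). Ftl1, the light chain, had 1972, 1493 and 3119 CPM in crizotinib livers 1, 2 and 3, against 2931, 2363 and 2779 CPM in control livers 1, 2 and 3. Crizotinib livers 1 and 2 lay below every control and liver 3 above (log2 difference -0.29 ± 0.49, SE, with an adjusted p of 0.804 by edgeR). By FPKM, Ftl1 made up 75.7%, 75.3% and 83.9% of the pair in crizotinib livers 1, 2 and 3, against 91.0%, 85.0% and 86.6% in control livers 1, 2 and 3. The groups did not overlap, with 78.3 ± 4.87% in crizotinib and 87.5 ± 3.08% in control livers (SD, n = 3 each; p = 0.1 in the same exact permutation test). Among pseudogenes, whose reads can be confused with these genes, Ftl1-ps1 had 1531 to 3098 counts in crizotinib and 2563 to 2866 counts in control libraries.

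**Figure D4:**
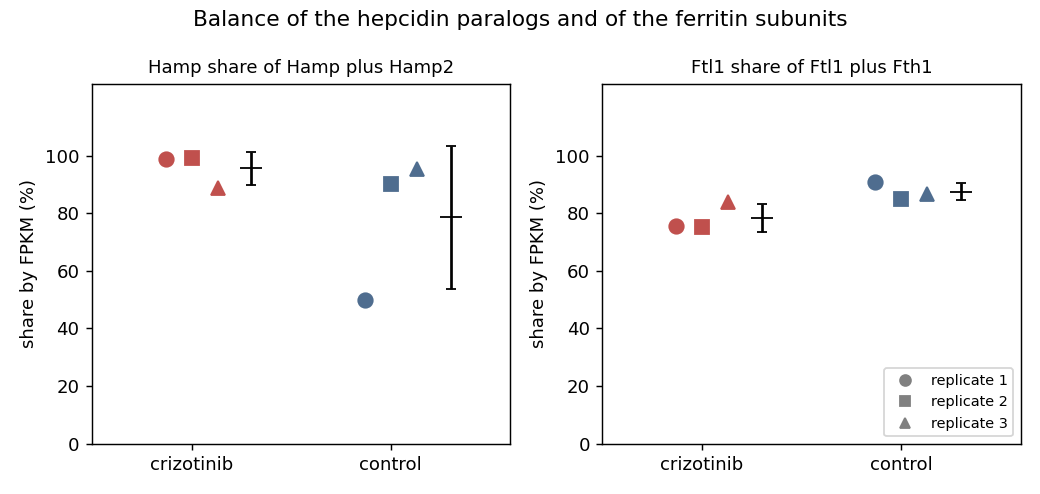
Share of Hamp in Hamp plus Hamp2 (left) and of Ftl1 in Ftl1 plus Fth1 (right), in percent by FPKM, for each library (red crizotinib, blue control), with the mean and SD beside each group. The Ftl1 share is lower in all 3 crizotinib libraries than in any control, while the Hamp share overlaps.

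Per gene length, Hamp was the most abundant of the 10 transcripts in crizotinib livers and Ftl1 in control livers. In crizotinib livers Hamp had 2244 ± 524 FPKM, Ftl1 1642 ± 817, Fth1 419 ± 84.5, Tfr2 106 ± 16.3, Hamp2 94.5 ± 117, Hfe 11.9 ± 1.59, Id1 8.72 ± 2.50, Tfrc 6.59 ± 1.98, Slc40a1 5.08 ± 1.72 and Bmp6 0.368 ± 0.115 FPKM (SD, n = 3). In control livers Ftl1 had 1725 ± 368 FPKM, Hamp 356 ± 155, Fth1 257 ± 115, Hamp2 183 ± 283, Tfr2 72.1 ± 29.5, Slc40a1 13.2 ± 6.84, Hfe 6.72 ± 2.89, Id1 4.09 ± 1.94, Tfrc 2.61 ± 0.970 and Bmp6 0.411 ± 0.0809 FPKM (SD, n = 3). Neighbours in these orders that lie within 1 SD of each other, such as Hamp and Ftl1 in crizotinib livers or Hamp and Fth1 in control livers, do not differ beyond their spread. Slc40a1 stood above Hfe, Id1 and Tfrc in control livers and below all 3 in crizotinib livers, by mean FPKM.

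Among other iron transporters, several had large fitted differences, seen mostly in crizotinib livers 1 and 2. Slc39a14, a zinc and iron importer that takes up iron not bound to transferrin, had 762, 854 and 184 CPM in crizotinib livers 1, 2 and 3, against 137, 165 and 127 CPM in control livers 1, 2 and 3 (log2 fold change 2.07, edgeR adjusted p = 0.171). Slc11a2, the divalent metal transporter, had 112, 141 and 22.6 CPM in crizotinib livers 1, 2 and 3, against 18.4, 23.3 and 18.6 CPM in control livers 1, 2 and 3 (log2 fold change 2.19, edgeR adjusted p = 0.166). In crizotinib liver 3 the first lay just above the controls and the second within them. Without that library both passed (log2 fold change 2.48 and 2.64, edgeR adjusted p = 0.00813 and 0.00436).

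Cp, the plasma ferroxidase ceruloplasmin, averaged 4268 ± 2672 CPM in crizotinib and 894 ± 139 CPM in control livers, and Lcn2, which binds bacterial iron carriers, 6366 ± 5076 and 204 ± 173 CPM (SD, n = 3 each; edgeR adjusted p = 0.190 and 0.142). Transferrin, named Trf in the table, averaged 22567 ± 8458 CPM in crizotinib and 12093 ± 4206 CPM in control livers (SD, n = 3 each; log2 fold change 0.90, edgeR adjusted p = 0.563), and the ferrireductase gene Steap3 differed by -0.33 on the log2 scale (edgeR adjusted p = 0.785). Of 19 listed transport and reduction genes 17 were tested and none passed edgeR's test. At an unadjusted p under 0.05, 7 were higher and 1 lower, where 8.06% of all genes tested were higher and 7.25% lower. The median log2 fold change was 0.76 (1.16 without control liver 2). DESeq2 called 7 higher, where it called 5.75% of all genes it adjusted. Without crizotinib liver 3 edgeR also called 7 higher, where it called 8.83% of all genes.

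Genes of the iron regulatory protein system had mostly small fitted differences. Aco1 and Ireb2, which encode both iron regulatory proteins, had log2 fold changes of -0.58 and -0.26, and Fbxl5, the iron-sensing ligase subunit that removes the second, 0.56 (edgeR adjusted p = 0.511, 0.674 and 0.408). Ncoa4, the receptor that sends ferritin to autophagy, had 160.5, 162 and 78.0 CPM in crizotinib livers 1, 2 and 3, against 33.4, 86.9 and 67.2 CPM in control livers 1, 2 and 3, and overlapped (log2 fold change 1.10, edgeR adjusted p = 0.308). Of 18 listed genes 17 were tested and none passed edgeR's test. At an unadjusted p under 0.05, 3 were higher and 0 lower, where 8.06% of all genes tested were higher and 7.25% lower. The median log2 fold change was -0.03 (-0.17 without control liver 1 and 0.03 without control liver 2). DESeq2 called 2 higher, Hif1a and Epas1 (log2 fold change 1.54 and 1.75, DESeq2 adjusted p = 0.0332 and 0.0166). It called 5.75% of all genes it adjusted. Without crizotinib liver 3 edgeR called the same 2 higher (log2 fold change 1.88 and 2.13) and 1 lower, Sdhb (-1.52). In that setting it called 8.83% of all genes. Hif1a, Epas1 and Sdhb were named after their values were seen.

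In heme iron recycling, the plasma scavengers haptoglobin and hemopexin were high in crizotinib livers 1 and 2. Hpx had 55685, 49067 and 5756 CPM in crizotinib livers 1, 2 and 3, against 2697, 6751 and 3449 CPM in control livers 1, 2 and 3, and Hp had log2 fold change 2.57 (edgeR adjusted p = 0.212 for Hpx and 0.215 for Hp). Hmox1, which breaks heme down and frees its iron, had 234, 84.1 and 12.9 CPM in crizotinib livers 1, 2 and 3, against 15.9, 13.2 and 23.8 CPM in control livers 1, 2 and 3; in crizotinib liver 3 it was below every control (log2 fold change 2.64, edgeR adjusted p = 0.215). Of 13 listed genes all were tested and none passed edgeR's test. At an unadjusted p under 0.05, 4 were higher and 2 lower, where 8.06% of all genes tested were higher and 7.25% lower. The median log2 fold change was -0.16. That median changed sign with 1 library, being 0.39 without control liver 2 and 0.02 without crizotinib liver 3. DESeq2 called 3 higher, where it called 5.75% of all genes it adjusted. Without crizotinib liver 3 edgeR also called 3 higher, where it called 8.83% of all genes.

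Of genes tied to the demand of red cell formation, Erfe, which encodes erythroferrone, had 1 count in the 6 libraries together. Fgl1, a liver-secreted antagonist of the BMP signal to hepcidin in mice, had 2088, 2929 and 1430 CPM in crizotinib livers 1, 2 and 3, against 481, 1312 and 365 CPM in control livers 1, 2 and 3 (log2 fold change 1.58, edgeR adjusted p = 0.287). Each crizotinib liver was above each control, liver 3 only just. Of 6 listed genes 4 were tested and none passed edgeR's test. At an unadjusted p under 0.05, 1 was higher and 1 lower, where 8.06% of all genes tested were higher and 7.25% lower. The median log2 fold change was 0.65. DESeq2 called 1 higher and 1 lower, where it called 5.75% of all genes it adjusted. It gave Erfe and Epo no adjusted p, and its median of 0.09 includes both.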

How the data were processed

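Per the labels' protocols, liver RNA of the 6 mice was isolated with a Qiagen column kit, and SMARTer mRNA libraries were made from 1.3 µg each. The authors' counts are whole numbers per gene without normalization. The authors' FPKM are, per the file headers, scaled per gene length and library total. The sources used here name no aligner, counter, annotation or strand setting. Of 26060 identifiers shared with GENCODE M21 on GRCm38, 89.65% had equal start and end, including 8 of the 10 genes described.

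Counts were filtered by filterByExpr (minimum count 10, minimum total 15), TMM-scaled and tested with edgeR 4.0.16 in R 4.3.3 (quasi-likelihood, two-sided, Benjamini-Hochberg over 16492 genes, threshold 0.05). The SE of an edgeR fold change was derived from that test, as the absolute log2 fold change divided by the square root of its F statistic. Single values per library used two-sided exact permutation tests over 20 labelings. Other settings were DESeq2 1.42.0, its size factors, no filter, the replicate number as a block, limma 3.58.1 on log2(FPKM + 1), removal of mitochondrially encoded genes, and left-out libraries. On counts simulated for the same 16492 genes and this comparison, edgeR recovered 0%, 42%, 68% and 92% of genes changed 2-, 4-, 8- and 16-fold, with 6.48% false among 108 calls; DESeq2 recovered 10%, 76%, 94% and 100%, with 30% false among 200 calls.

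The genes and lists were chosen with earlier results of these data known. Named were the 10 genes, a fixed set from each list (transferrin, listed as Tf, was matched as Trf), any listed gene called over all genes, and the 5 genes nearest in pattern to Hamp and to Tfrc; some genes these rules cover are not reported here. Promoters came from RefSeq (GRCm38.p6), and transcripts from GENCODE M21, aligned with Biopython 1.88.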

Additional observations from a re-analysis of the deposited data

How the results depend on the processing

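The number of genes called rested on the libraries and the tool: 56 by edgeR over all 6 libraries, 1058 by DESeq2, 1718 with control liver 1 and crizotinib liver 3 left out together (chosen after seeing the data), and 0 to 1504 with any one library left out, the highest without crizotinib liver 3. With the replicate number as a block edgeR called 0 genes (2068 at an unadjusted p under 0.05), and none of the 10 genes passed. Deviations of same-numbered libraries from their group means correlated at r of -0.14, 0.25 and -0.08 across genes. For differently numbered libraries r ran from -0.29 to 0.26. So few values cannot settle whether same-numbered livers were paired or shared a batch. Over the 10 genes and 129 values under other settings, 123 kept direction and side of the threshold. Hamp and Slc40a1 passed in 2 settings each. Hamp2 (-1.73) was -3.37 to 2.24 with any one library left out, reversed to 2.24 without control liver 1, and 0.62 with control liver 1 and crizotinib liver 3 left out together. The difference in Hamp share (16.96 percentage points, crizotinib minus control) was 2.67 to 25.4 with any one library left out. The difference in Ftl1 share (-9.25) was -12.1 to -7.53 with any one library left out and -14.7 by counts in place of FPKM, which drops the scaling by gene length. The cause of the other shifts was not tested. With 3 livers per group and a common biological coefficient of variation of 0.470, edgeR recovered 0% and DESeq2 10% of simulated 2-fold changes, so most changes near that size would be missed.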
